A study of Mus musculus with 21 samples.

Results

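A set of 6 genes of the interferon regulatory factor family, Irf1, Irf2, Irf3, Irf4, Irf5 and Irf8, were followed across 21 RNA-seq libraries of mouse splenic T cells. They were chosen by gene symbol, matched to the Ensembl identifiers of the deposited gene tables, and all 6 of the 51201 gene identifiers passed the filter on low counts in both cell types. Splenic CD4+ and CD8+ T cells came from C57BL/6J mice at postnatal day 35. One genotype, L-gp130fl/+;CD4Cre+/-, carries a floxed allele of L-gp130, a form of the interleukin-6 family receptor chain gp130 that signals without ligand, which Cre expressed from the Cd4 promoter switches on. Control mice were CD4Cre+/- and had the same Cre transgene without L-gp130. There were 6 L-gp130 and 6 control libraries of CD4+ cells, and 3 L-gp130 and 6 control libraries of CD8+ cells. Purification differed by cell type: beads against CD4 captured the CD4+ cells themselves, whereas for CD8+ cells a kit removed the unwanted cells. The labelled sexes were unbalanced: 5 female and 1 male control and 2 female and 4 male L-gp130 libraries of CD4+ cells, and 2 female and 4 male control and 1 female and 2 male L-gp130 libraries of CD8+ cells. The Cd4 promoter is active in the precursors of both T cell lineages. Each library carries its own mouse number in its group, and p-values measure the spread between these mice only.

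Interferon regulatory factors are transcription factors that share a DNA-binding domain recognising GAAA repeats. IRF3 waits in the cytoplasm as a finished protein and is switched on by phosphorylation, IRF1 is made on demand after interferon gamma, and IRF2 binds many of the sites that IRF1 binds. IRF4 is made after T cell receptor signalling, binds composite sites with BATF and JUN proteins, and is known for its role in TH17, follicular helper, effector regulatory and cytotoxic T cells and in plasma cells. IRF8 and IRF5 are best known from myeloid cells, dendritic cells and B cells.

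All 6 genes lie on the plus strand of GRCm38 and are protein coding. Irf1 (ENSMUSG00000018899) spans chr11:53770014-53778374, Irf2 (ENSMUSG00000031627) chr8:46739732-46847458 and Irf3 (ENSMUSG00000003184) chr7:44997648-45002848. Irf4 (ENSMUSG00000021356) spans chr13:30749226-30766976, Irf5 (ENSMUSG00000029771) chr6:29526625-29541871 and Irf8 (ENSMUSG00000041515) chr8:120736358-120756694. gp130 signals mainly through STAT3, and STAT dimers bind the letters TTCNNNGAA, so the promoter windows of the members (250 bases before to 50 after each RefSeq start, build GRCm38.p6) were searched on both strands for them. The stretches below are shown because 3 members held such letters, in capitals, and because Irf4, the member that passed the genotype test in both cell types, held none.
Irf1, chr11:53769864-53769983, plus strand: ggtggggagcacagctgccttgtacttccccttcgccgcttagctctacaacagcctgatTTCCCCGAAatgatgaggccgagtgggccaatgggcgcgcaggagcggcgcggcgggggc
Irf8, chr8:120736138-120736257, plus strand: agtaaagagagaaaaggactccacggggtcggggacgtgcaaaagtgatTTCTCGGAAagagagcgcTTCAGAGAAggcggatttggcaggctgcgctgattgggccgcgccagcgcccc
Irf2, chr8:46739495-46739554, plus strand: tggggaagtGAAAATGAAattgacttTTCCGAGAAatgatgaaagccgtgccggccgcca
Irf4, chr13:30748983-30749232, plus strand: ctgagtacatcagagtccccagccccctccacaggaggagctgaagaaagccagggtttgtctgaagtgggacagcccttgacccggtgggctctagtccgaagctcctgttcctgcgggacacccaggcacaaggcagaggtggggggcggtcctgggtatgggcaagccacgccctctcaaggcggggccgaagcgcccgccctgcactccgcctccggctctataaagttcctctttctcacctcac
The Irf1 match TTCCCCGAA began 90 bases before the start. Irf8 held TTCTCGGAA and TTCAGAGAA, beginning 171 and 153 bases before it, and Irf2 held TTCCGAGAA beginning 224 bases before it. Irf2 also held GAAAATGAA, a match to GAAANNGAA, the core of the element that interferon regulatory factors bind. The windows of Irf3, Irf4 and Irf5 held neither of these letter patterns, and none of the 6 genes held TGANTCA, the letters of an AP-1 site. Over all 32851 RefSeq windows of this length, TTCNNNGAA was present in 8.3%, GAAANNGAA in 8.56% and TGANTCA in 7.81%. Counted per gene, as the members are, the shares were 9.55%, 9.76% and 8.97% of 27025 genes. A match describes letters and says nothing of binding in these cells.

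Depth ran from 27855757 to 35869208 estimated gene counts in control CD4+ libraries and from 17217364 to 21226510 in the other 3 groups. In CD4+ cells depth therefore goes with genotype. The 3 CD4+ markers (Cd4, Zbtb7b, Cd40lg) summed to 702 to 1145 CPM (counts scaled to library size, with TMM factors) in CD4+ libraries and to 27.5 to 49.8 in CD8+ libraries. The 4 CD8+ markers (Cd8a, Cd8b1, Runx3, Crtam) summed to 137 to 240.4 CPM and 1548 to 2567 CPM. L-gp130 CD4+ replicate 1 stood apart: its 14 dendritic cell markers summed to 2475 CPM against 699 to 1236 in the other 5 L-gp130 libraries, and its 14 monocyte and macrophage markers to 2728 against 657 to 1269. In 1 library, control CD4+ replicate 5, the labelled sex went against the sex-linked transcripts. Control CD8+ replicates 1 to 3 differed from replicates 4 to 6 in the immediate early gene Fos (360.5 to 497 against 73.6 to 196 CPM). Erythroid markers summed to 4799 to 39853 CPM in CD4+ and 71.2 to 719 CPM in CD8+ libraries.

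Per transcript length, Irf1 and Irf3 were the most abundant members and Irf4 the least in all 4 groups. On the TPM scale, which divides by transcript length and scales each library to the same total, Irf3 averaged 176 ± 11.3 (SD, n = 6) and Irf1 149 ± 9.65 in control CD4+ cells, and their ranges of 162 to 188 and 135 to 163 TPM overlapped. Irf2 followed at 80.7 ± 2 TPM and Irf8 at 61.3 ± 5.86, then Irf5 at 29 ± 6.52 and Irf4 at 13.6 ± 1.03. In control CD8+ cells the order was Irf1 (173 ± 9.21 TPM), Irf3 (112 ± 10.9), Irf2 (60.6 ± 3.85), Irf8 (21.6 ± 3.92), Irf5 (9.01 ± 2.41) and Irf4 (3.45 ± 0.776). In L-gp130 CD8+ cells (n = 3) Irf4 averaged 6.03 ± 0.567 TPM and Irf5 9.09 ± 0.841, so Irf4 was still the lowest. Levels of Irf8 and Irf5 ranged widely in L-gp130 CD4+ cells, from 29.4 to 129 and from 18.7 to 52.3 TPM.

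**Figure D1:**
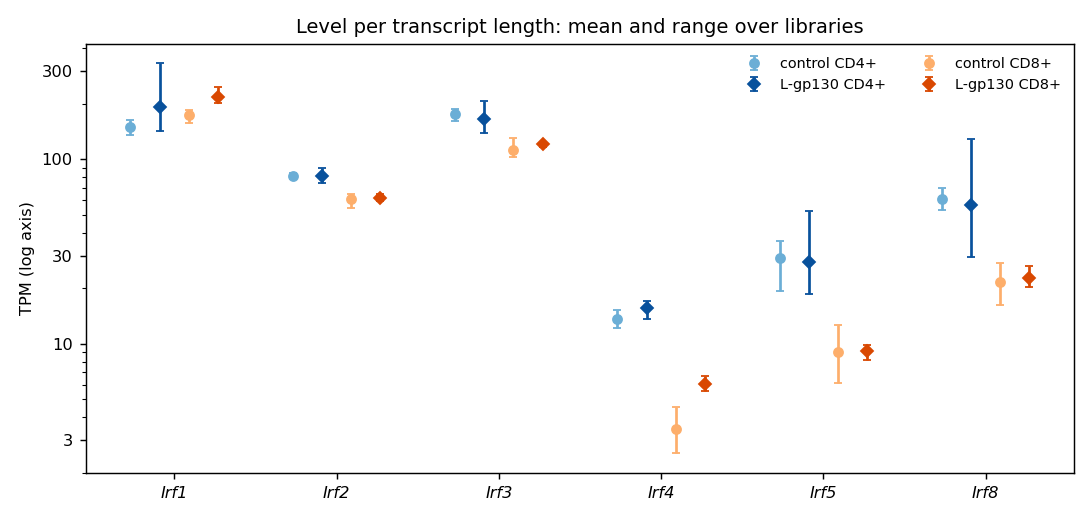
Level of each member per transcript length (TPM, log axis) in the 4 groups; points are means and bars run from the lowest to the highest library (n = 6, 6, 6 and 3). Irf4 is the least abundant member in each group, at 13.6 TPM in control CD4+ cells and 3.45 TPM in control CD8+ cells.

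Irf4 was the only member that passed the genotype test in both cell types. In CD4+ cells its lowest, median and highest levels were 49.1, 52.8 and 56.3 CPM in the 6 L-gp130 libraries and 40.7, 42.5 and 48 CPM in the 6 controls. Every L-gp130 library lay above every control. The log2 fold change was 0.29 ± 0.07 (SE), a 1.23-fold rise, with an adjusted p of 0.0153 by edgeR's quasi-likelihood test. It was the 1 member of 6 called in CD4+ cells, against a background of 18.9% of all 15016 genes tested (11.1% called higher). The call was lost without control replicate 1 (adjusted p = 0.0741), without L-gp130 replicate 2 (0.0729), in females alone (0.0549) and with no filter on low counts (0.06). Without L-gp130 replicate 1, the library that stood apart, the log2 fold change was 0.30 with an adjusted p of 0.00921.

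In CD8+ cells Irf4 measured 20.2, 23.8 and 18.9 CPM in L-gp130 replicates 1 to 3, and its lowest, median and highest control levels were 9.03, 12.3 and 15.8 CPM. All 3 L-gp130 libraries lay above all 6 controls. Irf4 rose by 0.77 ± 0.18 on the log2 scale, or 1.71-fold (adjusted p = 0.0144). Irf4 and Irf1 were the 2 members of 6 called, against a background of 21% of the 14254 genes tested (10.5% called higher). The Irf4 call was lost without L-gp130 replicate 1 (adjusted p = 0.0564), without replicate 2 (0.0769) and in females alone (0.66, with 1 L-gp130 and 2 control libraries). Control replicates 1 to 3 read 12.9 to 15.8 CPM and replicates 4 to 6 read 9.03 to 11.7 CPM. Against the first 3 alone the log2 fold change was 0.53 ± 0.15 (adjusted p = 0.037), and against the last 3 alone 1.06 ± 0.17 (adjusted p = 0.00266).

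**Figure D2:**
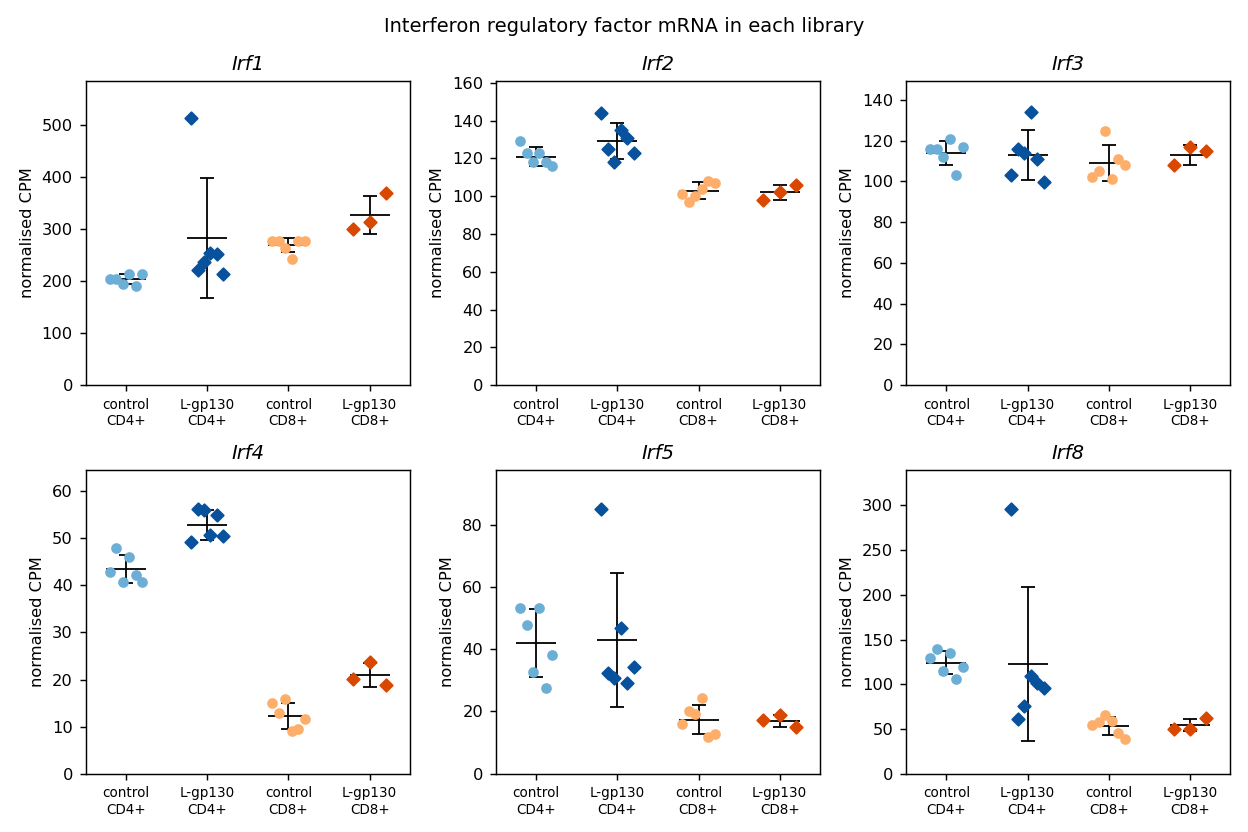
Normalised CPM of the 6 members in each library, scaled within each cell type; points are libraries, the horizontal mark is the mean and the bar its SD. Irf4 lies higher in all L-gp130 than in all control libraries of the same cell type, while 1 L-gp130 CD4+ library lies far above the others for Irf1 (515 CPM), Irf5 (85.1 CPM) and Irf8 (296 CPM).

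The rise of Irf4 was nominally larger in CD8+ than in CD4+ cells, but the difference did not pass the test. The log2 effect in CD4+ minus that in CD8+ cells was -0.51 ± 0.18 (95% interval -0.87 to -0.15, unadjusted p = 0.0111, adjusted p = 0.138). Of all genes, 3.46% had a called difference between the cell types, and of the 6 members 0 did by edgeR, DESeq2 or limma-voom, with Irf4 the 1 member at an unadjusted p under 0.05. Without control CD8+ replicate 3 the Irf4 difference was called (adjusted p = 0.0408).

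Markers of plasma cells and of regulatory T cells, both of which use IRF4, also differed by genotype. The background for the counts below was 11.1% of all genes called higher and 7.75% lower in CD4+ cells, and 10.5% each way in CD8+ cells. In CD4+ cells 7 of 11 tested plasma cell markers were called higher and 0 lower in L-gp130. Their sum was 416 to 1148 CPM in L-gp130 and 234 to 352 in controls. In CD8+ cells 2 of 12 were called higher (3 against control replicates 1 to 3 alone), and the sum was 1160.1, 498 and 2585 CPM in L-gp130 replicates 1 to 3 against 207 to 651 in controls. In the same order, these L-gp130 CD8+ libraries had 20.2, 23.8 and 18.9 CPM of Irf4 and 6.46, 8.71 and 7.44 CPM of Foxp3. Replicate 2 thus had the lowest plasma cell marker sum and the highest Irf4 and Foxp3 of its group. Control CD8+ libraries ran the other way. Replicates 1 to 3 had plasma cell marker sums of 584 to 651 CPM and Irf4 at 12.9 to 15.8 CPM. Replicates 4 to 6 had sums of 207 to 337 CPM and Irf4 at 9.03 to 11.7 CPM. Of 14 regulatory T cell markers, 7 were called higher and 0 lower in CD4+ cells (sum 1127 to 1437 against 715 to 936 CPM). In CD8+ cells 6 of 13 were called higher and 2 lower (974 to 1122 against 845 to 1049 CPM). The regulatory T cell factor gene Foxp3 read 58.1 to 117 CPM in L-gp130 and 60.1 to 97.2 in control CD4+ libraries (log2 fold change 0.31 ± 0.19, adjusted p = 0.268). Foxp3 in CD8+ cells measured 6.46 to 8.71 CPM against 1.54 to 3.9 in controls (1.63 ± 0.25, adjusted p = 0.00177). Of the plasma and regulatory T cell markers, 0 were at 0 in a group, and the part of either cell type in the Irf4 result was not tested. In RNA from bulk cells, more cells of a type and more RNA per cell cannot be told apart.

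Across the 21 libraries, scaled together, the genes whose log2 CPM followed Irf4 most closely were Il2ra (Pearson r = 0.981), Lrrc32 (0.977) and Foxp3 (0.973), out of 9142 genes searched. Il2ra encodes the high-affinity interleukin-2 receptor chain and Lrrc32 the surface protein GARP, both typical of regulatory T cells. These points share cell type: Irf4, Il2ra and Foxp3 are all higher in CD4+ than in CD8+ libraries. Within the 12 CD4+ libraries, after the group means were subtracted, the first 5 were Sypl (0.842), Pyurf (0.819), Dnajc24 (0.77), Gtf2h2 (0.756) and Rpusd1 (0.754). These are the highest of 9142 genes over 12 libraries, and whether chance alone gives such values was not tested. The values of Il2ra, Lrrc32 and Foxp3 within these libraries are not given here.

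**Figure D3:**
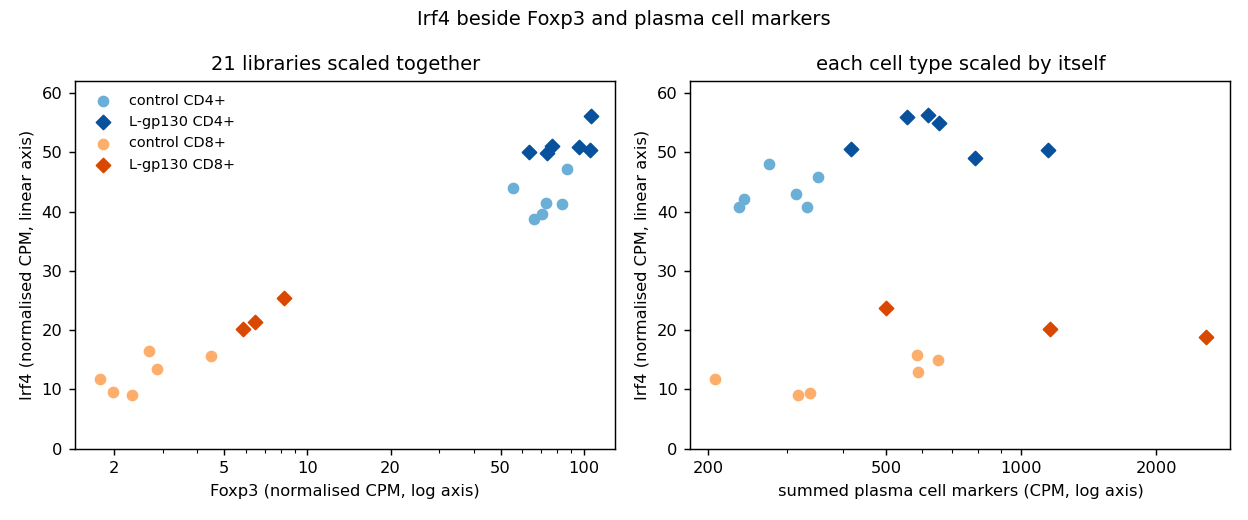
Irf4 in each library (normalised CPM, linear axis) against Foxp3 (left, 21 libraries scaled together, log axis) and against the summed CPM of 12 plasma cell markers (right, each cell type scaled by itself, log axis). CD4+ and CD8+ libraries form separate groups on the left. The L-gp130 CD8+ library with the fewest plasma cell marker counts (498 CPM) has the highest Irf4 of its group (23.8 CPM). It also has the highest Foxp3 of its group (8.24 CPM on the left). Control CD8+ replicates 1 to 3 have marker sums of 584 to 651 CPM and Irf4 at 12.9 to 15.8 CPM. Control CD8+ replicates 4 to 6 are lower in both (207 to 337 and 9.03 to 11.7 CPM).

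IRF4 binds DNA with partner factors. Of 19 partner genes tested in CD4+ cells, 9 were called higher, 1 lower and 9 neither way, where 11.1% of all genes were called higher and 7.75% lower, with a median log2 fold change of 0.36 against -0.01 over all genes. Batf, the AP-1 factor that binds with IRF4 in TH17 cells, read 62.4 to 79.1 CPM in L-gp130 and 22.6 to 26.6 in control CD4+ libraries (log2 fold change 1.62 ± 0.08, adjusted p = 7.32e-08). Junb, which dimerises with BATF, rose by 0.98 ± 0.09 (adjusted p = 1.25e-05). Stat3, the main STAT of gp130, rose by 0.63 ± 0.07 (4.47e-05) and Maf, a factor of interleukin-21 producing cells, by 0.82 ± 0.09 (5.92e-05). Bcl6, Fos, Fosl2, Nfatc1 and Nfatc2 were the other 5 called higher, and Spib, a B cell and plasmacytoid dendritic cell factor, was the 1 called lower.

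In CD8+ cells 3 of 18 partner genes were called higher and 0 lower (median 0.16): Batf, Stat3 and Bcl6. The share of all genes there was 10.5% called each way. Batf read 39.8 to 43.5 CPM in L-gp130 and 25.9 to 31.7 in controls (0.57 ± 0.08, adjusted p = 0.00145), and Stat3 rose by 0.73 ± 0.07 (0.000199). Junb read 1302 to 1608 CPM in L-gp130 CD8+ libraries and 585 to 1738 in controls, which overlapped (0.29 ± 0.4, adjusted p = 0.648). Against control replicates 1 to 3 alone 6 partner genes were called higher and 2 lower. The Batf rise was larger in CD4+ than in CD8+ cells by 1.02 on the log2 scale, a difference that passed the test.

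Genes of the pathway that induces Irf4, from the T cell receptor to NF-kappaB and NFAT, held called genes of both directions in both cell types. In CD4+ cells 6 of 19 were called higher and 2 lower (median 0.18). In CD8+ cells 3 were called higher and 2 lower (median 0.05), and 5 higher and 1 lower against control replicates 1 to 3 alone. With all libraries, 11.1% of all genes were called higher and 7.75% lower in CD4+ cells, and 10.5% each way in CD8+ cells. Egr2, an early response factor of the T cell receptor, rose by 1.43 ± 0.08 in CD4+ cells (46.3 to 58.4 against 18.2 to 20.9 CPM, adjusted p = 1.91e-07) and by 0.60 ± 0.14 in CD8+ cells (adjusted p = 0.014, up to 0.0685 without L-gp130 replicate 1 or 3). Zap70, the kinase at the receptor, rose in CD4+ cells (0.48 ± 0.08, adjusted p = 0.00117), and its CD8+ value was 0.14 ± 0.06 (0.127). Nfatc1, a factor switched on by calcium signals, rose in CD4+ cells by 0.57 ± 0.09 (0.00133), with a CD8+ value of 0.004 ± 0.07 (0.976). Rptor, a subunit of the mTORC1 kinase complex, was called lower in both cell types, in CD8+ cells in 2 of 9 fits that left out 1 library.

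Of tested genes known as IRF4 targets in T cells, 10 of 17 were called higher and 1 lower in CD4+ cells (median 0.93). In CD8+ cells 10 of 16 were called higher and 0 lower (median 0.72). Over all genes, 11.1% were called higher in CD4+ and 10.5% in CD8+ cells, with a median of -0.01 in both. Like the other gene lists, this one was chosen with earlier results of these data known, and IRF4 activity was not tested. Gzmb, the cytotoxic protease granzyme B, read 121 to 469.6 CPM in L-gp130 and 4.59 to 6.8 in control CD4+ cells (4.67 ± 0.36, adjusted p = 1.48e-05). In CD8+ cells it read 275 to 521 against 20.4 to 35.9 CPM (3.72 ± 0.21, adjusted p = 1.42e-05). Il21, the cytokine of follicular helper and TH17 cells, rose from 0.778 to 3.04 CPM in controls to 15.8 to 25.7 CPM in CD4+ cells (3.74 ± 0.32, adjusted p = 1.22e-05). In CD8+ cells Il21 read 0.801 to 1.92 CPM in L-gp130 and 0 to 0.111 CPM in controls, too few counts for a firm fold change. The inhibitory receptor gene Tigit rose by 2.45 ± 0.14 in CD4+ and 1.65 ± 0.25 in CD8+ cells (adjusted p = 4.04e-07 and 0.0017), and the costimulatory receptor gene Icos by 1.45 ± 0.1 and 0.92 ± 0.08 (1.11e-06 and 4.43e-05). Gata3, the TH2 factor, was the 1 target called lower, at 41.9 to 52.6 against 61.1 to 72.5 CPM (-0.44 ± 0.08, adjusted p = 0.00293). Prdm1, a classical IRF4 target in plasma cells and effector T cells, read 11.7 to 29.97 CPM in L-gp130 and 13.2 to 15.8 in control CD4+ cells (0.02 ± 0.19, adjusted p = 0.962). Gata3, Prdm1 and, above, Rptor were named after their values were seen. Tigit, Ctla4 and Ccr8 also stand in the list of regulatory T cell markers, and Bcl6 in the list of partner genes. Nfatc1 and Nfatc2 stand in the lists of both the partners and the inducing pathway. The counts of these lists are therefore not independent.

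Irf4 reads fell on a pair of transcript models that differ by 3 bases at the start of exon 5, at chr13:30753445 and chr13:30753448. The bases around that junction, with the extra 3 in capitals, were:
Irf4-201: ctgccagcccagCAGgttcataactac
Irf4-202: ctgccagcccaggttcataactac
The share of Irf4 reads assigned to Irf4-202 was 29.1% to 58.7% in L-gp130 CD4+ and 30.1% to 52.3% in control CD4+ libraries. It was 31%, 50.6% and 56.9% in the L-gp130 CD8+ libraries, in ascending order, and 13.2% to 37.5% in control CD8+ libraries. The CD8+ ranges overlapped, and shares were described without a test.

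Irf1 passed the test in CD8+ cells. It read 299.6, 315 and 369 CPM in L-gp130 replicates 1 to 3 and 243 to 278 CPM (median 277) in the 6 controls, and the groups did not overlap. The rise was 0.28 ± 0.07 on the log2 scale, 1.21-fold (adjusted p = 0.0217). The call was lost without L-gp130 replicate 2 (0.0679) or 3 (0.17) and in females or males alone, where adjusted p reached 0.407. Against control replicates 1 to 3 alone the value was 0.26 ± 0.08 (0.0497), and against 4 to 6 alone 0.30 ± 0.08 (0.0225).

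In CD4+ cells the Irf1 levels were 214, 245 and 515 CPM (lowest, median, highest) in L-gp130 and 191, 205 and 214 in controls. The highest library was L-gp130 replicate 1, and the lowest L-gp130 library and the highest control both rounded to 214 CPM. The log2 fold change had the same size as in CD8+ cells but a wider error, 0.28 ± 0.22 (adjusted p = 0.392), and 0.47 ± 0.19 without the sex covariate (0.0825). Without replicate 1 it was 0.16 ± 0.06 (0.0635). The difference between the cell types was 0.15 ± 0.27 (95% interval -0.37 to 0.67, adjusted p = 0.822). Among the genes that followed Irf1 most closely over the 21 libraries were Icam1 (r = 0.931), an adhesion molecule, and Gna15 (0.918), a G protein subunit.

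Irf1 is made through interferon receptors, JAK kinases and STAT factors. Of 13 genes of this pathway and its inhibitors, 4 were called higher and 2 lower in CD4+ cells (median 0.07) and 2 higher and 2 lower in CD8+ cells (median -0.09), or 3 and 2 against control replicates 1 to 3 alone. The background with all libraries was 11.1% called higher and 7.75% lower in CD4+ cells, and 10.5% each way in CD8+ cells. Socs3, the feedback inhibitor of gp130 itself, read 264 to 432 against 116 to 140.2 CPM in CD4+ cells (1.55 ± 0.12, adjusted p = 4.02e-06). In CD8+ cells it read 444 to 514 against 115 to 171 CPM (1.79 ± 0.12, 1.23e-05). Socs1, which blocks interferon gamma signalling, rose by 1.03 ± 0.13 in CD4+ and 0.50 ± 0.11 in CD8+ cells (0.000226 and 0.0122, the latter up to 0.0781 without L-gp130 replicate 2 or 3). Ifngr2, the interferon gamma receptor chain that limits T cell responses, fell by 0.77 on the log2 scale in CD4+ cells (adjusted p = 0.00385). In CD8+ cells its level was 13.3 to 17.3 CPM against 30.5 to 42.3 CPM, and it fell by 1.24 (adjusted p = 0.00035). Jak1 had a CD4+ value of -0.17 ± 0.11 (0.317) and fell in CD8+ cells (-0.35 ± 0.06, 0.00392).

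Of 20 IRF1 target genes tested in CD4+ cells, 0 were called by edgeR (3 at an unadjusted p under 0.05, 3 called by DESeq2 and 1 by limma-voom), and the median was 0.16. The share of all genes called there by edgeR was 18.9%. Without L-gp130 replicate 1, 5 were called higher: Gbp2 (0.58 ± 0.08, adjusted p = 0.000205), Gbp5 (0.57 ± 0.08, 0.00023), Gbp3 (0.60 ± 0.10, 0.000954), Il12rb1 (0.66 ± 0.14, 0.00462) and Cxcl9 (1.48 ± 0.32, 0.00775). The Gbp genes encode guanylate-binding proteins, Il12rb1 a chain of the interleukin-12 and interleukin-23 receptors and Cxcl9 a chemokine induced by interferon gamma. In CD8+ cells 2 of 20 were called higher and 2 lower (median -0.08), where 10.5% of all genes were called each way. Il12rb1 rose from 20.6 to 27.2 CPM in controls to 36.1 to 49.6 CPM (0.77 ± 0.1, adjusted p = 0.000798), and Gbp3 by 0.46 ± 0.08 (0.00291). B2m, the light chain of MHC class I, fell from 1913 to 2244 CPM to 1488 to 1648 CPM (-0.39 ± 0.06, 0.00249), and Gbp6 from 105 to 134 to 81 to 90.6 CPM (-0.50 ± 0.08, 0.00256).

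**Figure D4:**
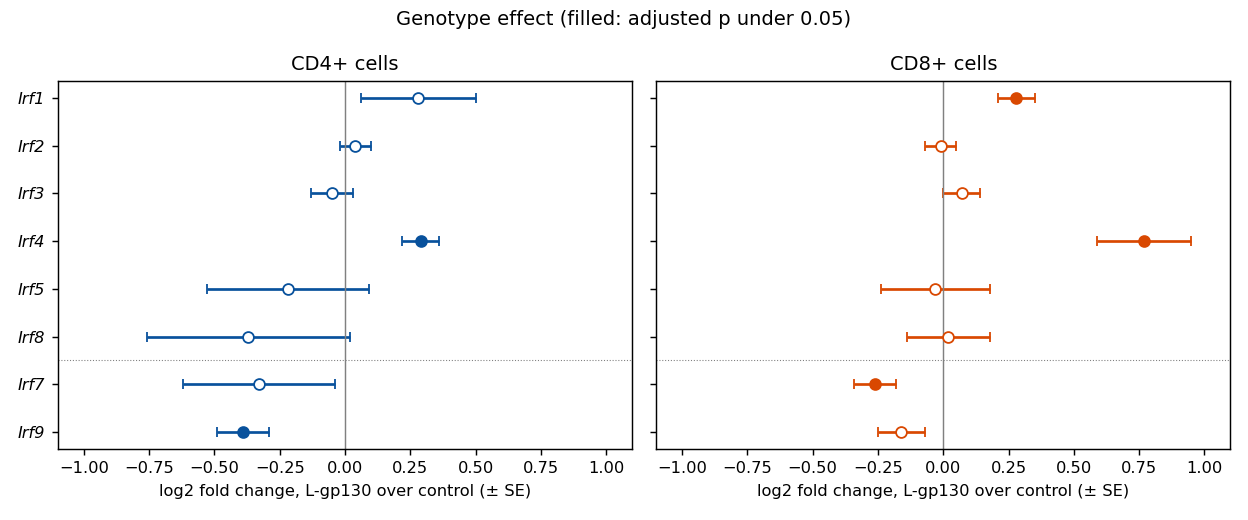
Log2 fold change of each member and of Irf7 and Irf9, L-gp130 over control, in CD4+ (left) and CD8+ (right) cells; bars are SE and filled points have an adjusted p under 0.05. Irf4 is filled on both sides (0.29 and 0.77), Irf1 on the CD8+ side (0.28), Irf9 on the CD4+ side (-0.39) and Irf7 on the CD8+ side (-0.26).

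Irf2 and Irf3 had small genotype values with narrow intervals. Irf2, the factor that competes with IRF1, read 118 to 144 CPM in L-gp130 and 116 to 129 in control CD4+ cells. Its log2 fold change was 0.04 ± 0.06 (95% interval -0.08 to 0.16, adjusted p = 0.662). In CD8+ cells Irf2 read 97.9, 102 and 106 CPM in L-gp130 and 96.7 to 108 in controls (-0.01 ± 0.06, 95% interval -0.14 to 0.11). Irf3 read 99.5 to 134 CPM against 103 to 121 in CD4+ cells (-0.05 ± 0.08, -0.21 to 0.11, adjusted p = 0.703). In CD8+ cells Irf3 read 108, 117 and 115 CPM against 101 to 125 (0.07 ± 0.07, -0.08 to 0.21). Each interval excludes a change of more than 0.21 in either direction, and the groups overlapped for both genes in both cell types.

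IRF3 protein is switched on by sensors, adaptors and the kinase TBK1. Of 13 genes of this route tested, 2 were called higher and 1 lower in CD4+ cells (median -0.08) and 1 higher and 2 lower in CD8+ cells (median -0.16). The shares of all genes were 11.1% higher and 7.75% lower in CD4+ cells, and 10.5% each way in CD8+ cells. Tmem173, which encodes the DNA-sensing adaptor STING, rose in CD4+ cells from 124 to 139 to 159.8 to 181 CPM (0.33 ± 0.06, adjusted p = 0.0021). Ddx58, the RNA sensor RIG-I, fell there from 130.3 to 165 to 93.3 to 126 CPM (-0.48 ± 0.1, 0.00551). Tank, a scaffold of the kinase TBK1, was the 1 gene of the list called in opposite directions: 0.20 ± 0.06 in CD4+ (0.0283) and -0.28 ± 0.08 in CD8+ cells (0.0375). These calls held in 6 of 12 and 2 of 9 fits that left out 1 library. Optn, which also binds TBK1, rose in CD8+ cells (10.6 to 13.4 against 3.96 to 7.86 CPM, 1.03 ± 0.22, adjusted p = 0.00891, up to 0.0585 without L-gp130 replicate 1 or 3). In those libraries 3 of 10 erythroid markers were called higher and 0 lower, among them Klf1, an erythroid factor (16.2 to 30.1 against 4.96 to 10.9 CPM). The median of these markers was 0.01, and their sums overlapped (134 to 294 CPM in L-gp130 and 71.2 to 719 in control CD8+ libraries). Hbb-bs, a globin gene among them, averaged 24.3 CPM against 86.2 in controls, with overlapping ranges (13.8 to 41.4 and 13 to 258 CPM). In CD4+ cells the L-gp130 libraries with most Optn, replicates 1 and 6 (25.1 and 27.4 CPM), also had most Klf1 (76.4 and 95.1 CPM), and the part of erythroid cells in the Optn value was not tested.

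Of 14 target genes shared by IRF3 and IRF7, 7 were called lower, 1 higher and 6 neither way in CD8+ cells, with a median of -0.56, where 10.5% of all genes were called lower (6 lower and 1 higher against control replicates 1 to 3 alone). In CD4+ cells 3 were called lower and 0 higher (median -0.36), and 4 lower and 1 higher without L-gp130 replicate 1. With all libraries, 7.75% of all genes were called lower there. In the same CD8+ comparison 9 of 14 monocyte and macrophage markers were called lower (median -1.67), with sums of 299 to 472 CPM in L-gp130 and 446 to 891 in controls. The part of such cells in these values was not tested. Ifit3, an antiviral RNA-binding protein gene, read 13.9 to 15.1 CPM in L-gp130 and 34.2 to 55.1 in control CD8+ cells (-1.50 ± 0.15, adjusted p = 0.000188). Ifit1 read 8.01 to 12.1 against 23.8 to 45.2 CPM (-1.66 ± 0.23, 0.00127) and Ifit3b fell by 1.39 (0.000929). Usp18, the protease that restrains interferon receptors, fell by 1.39 in CD8+ cells (0.000284) and by 0.83 in CD4+ cells, where ranges overlapped (9.59 to 25.7 against 20.4 to 30.6 CPM, adjusted p = 0.0343, called in 5 of 12 fits that left out 1 library). Ccl5, a chemokine that effector T cells store, was the 1 gene called higher in CD8+ cells (531 to 894 against 266 to 404 CPM, 1.03 ± 0.16, 0.00209).

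Transcript models that keep an intron drew most Irf3 reads, whereas protein-coding models took 95.1% to 99% of Irf1 and 95.9% to 99.8% of Irf2 reads. Intron-keeping models that keep an intron took 62.4% to 69% of Irf3 reads in L-gp130 and 64.9% to 69.8% in control CD4+ libraries. In CD8+ libraries they took 59.2% to 61% and 56.5% to 62.4%. The short models Irf3-208 and Irf3-210 together took 17.5% to 21.2% in control CD4+ and 5.68% to 8.4% in control CD8+ cells. Irf3 stood at 109 and 119.9 CPM in control CD4+ and CD8+ cells, scaled together, but at 176 and 112 TPM, so the cell types rank differently by reads and per length.

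Irf8 and Irf5, the members of antigen-presenting cells, were not called by genotype in the fits with all libraries. In CD4+ cells Irf8 read 61.2, 98.1 and 296 CPM (lowest, median, highest) in L-gp130 and 106, 124 and 139 in controls. The highest value was in replicate 1, and with all libraries the log2 fold change was -0.37 ± 0.39 (adjusted p = 0.539). Without the sex covariate it was -0.01 ± 0.33 (0.98). Without replicate 1 Irf8 was called lower, at -0.58 ± 0.15 (adjusted p = 0.0153), and without replicate 1 and control replicate 5 at -0.61 ± 0.15 (0.0148). Over the same alternatives dendritic cell markers called lower went from 4 to 9 of 14, and monocyte and macrophage markers from 1 to 7 of 14 without replicate 1 and to 12 of 14 without both libraries. In the 5 remaining L-gp130 libraries Irf8 read 61.2 to 109 CPM and dendritic cell markers summed to 699 to 1236 CPM, against 1157 to 1349 CPM in controls. The part of such cells in the Irf8 value was not tested.

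Irf5 read 29.1 to 85.1 CPM (median 33.2) in L-gp130 and 27.4 to 53.2 (median 43) in control CD4+ cells, again with replicate 1 highest. Its log2 fold change was -0.22 ± 0.31 (adjusted p = 0.649), -0.38 ± 0.20 without replicate 1 (0.2) and 0.03 ± 0.28 without the sex covariate (0.948). In CD8+ cells, where dendritic cell markers summed to 245 to 389 CPM, Irf8 read 50.5, 50.5 and 62.2 CPM in L-gp130 and 38.6 to 66.2 in controls (0.02 ± 0.16, 95% interval -0.28 to 0.33). Irf5 read 17.1, 18.9 and 15.1 CPM against 11.7 to 24.2 (-0.03 ± 0.21, -0.44 to 0.38). Irf5 shares 411 exon bases with Tnpo3 on the opposite strand, which had 1584 to 3709.7 reads against 221 to 1853.6 for Irf5. Because the libraries are unstranded, reads from the shared bases cannot be told apart. Irf3 and Bcl2l12 share 88 bases in the same way.

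**Figure D5:**
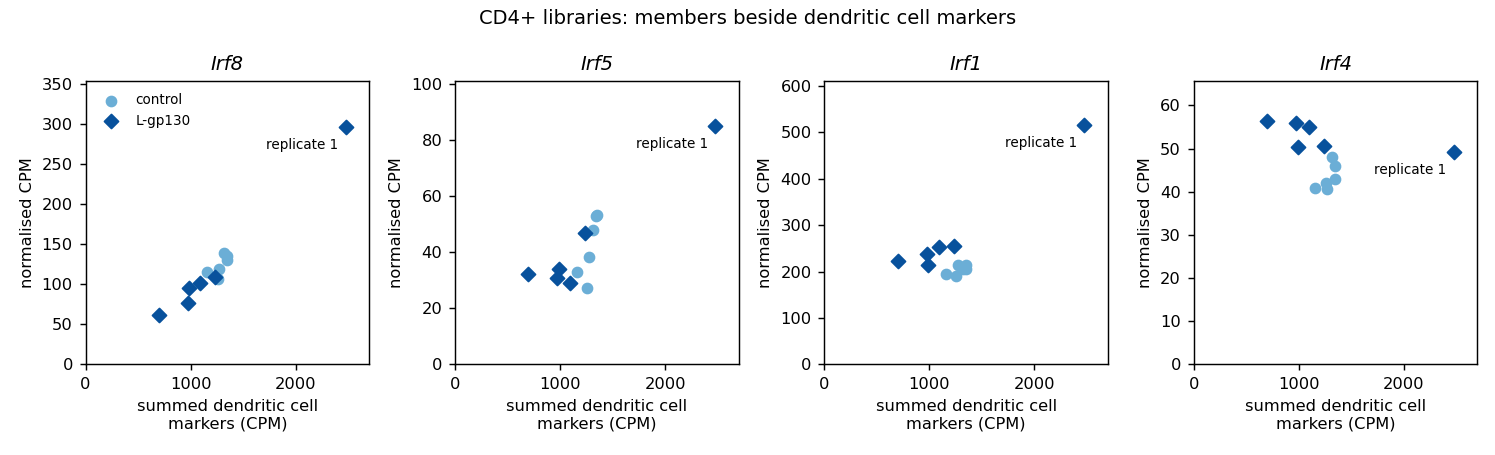
Normalised CPM of Irf8, Irf5, Irf1 and Irf4 in the 12 CD4+ libraries against the summed CPM of 14 dendritic cell markers in the same library. L-gp130 replicate 1 (2475 CPM of markers) is the highest library for Irf8, Irf5 and Irf1, and the lowest L-gp130 library for Irf4 (49.1 CPM).

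Genes whose levels followed Irf8 over the 21 libraries were Pla2g7 (r = 0.966), Gng12 (0.965) and Grn (0.959). Among those following Irf5 were Lyn (0.967), a Src family kinase of myeloid and B cells, and Pirb (0.961), an inhibitory receptor of the same cells. For Irf2 they were Gbp5 (0.832), Slc39a1 (0.814) and Mvp (0.812), and for Irf3 Klhl6 (0.834), Slc25a45 (0.831) and Gtpbp6 (0.819). All these points share cell type and library.

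IRF8 binds DNA with ETS-family factors. Of 9 such partner genes, 1 was called higher and 2 lower in CD4+ cells (median -0.15), and 1 higher and 0 lower in CD8+ cells (median -0.11), or 1 and 1 against control replicates 1 to 3 alone. Among all genes, with all libraries, 11.1% were called higher and 7.75% lower in CD4+ cells, and 10.5% each way in CD8+ cells. Etv6, an ETS repressor, read 109 to 124 against 50.8 to 57.3 CPM in CD4+ cells (1.08 ± 0.06, adjusted p = 1.95e-07) and rose by 0.34 ± 0.09 in CD8+ cells (0.0228, called in 6 of 9 fits that left out 1 library). Spib fell in CD4+ cells (29.5 to 63.1 against 43.8 to 126 CPM, -1.43 ± 0.29, 0.00641), and so did Ets2 (-0.41 ± 0.1, 0.0141, up to 0.115 without control replicate 1 or L-gp130 replicate 6). Spi1, which encodes the IRF8 partner PU.1, read 25.7 to 103 CPM in L-gp130 and 39.95 to 49.5 in control CD4+ cells (-0.15 ± 0.28, 0.751), with replicate 1 highest, and was named after its values were seen. B cell markers, of which 7 of 14 were called lower in CD4+ cells (8 without L-gp130 replicate 1, 13 without control replicate 5 as well), summed to 329 to 869 CPM in L-gp130 and 357 to 1345 in controls.

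Of 11 genes that activate IRF5, 2 were called higher and 2 lower in CD4+ cells (median -0.15), and 1 higher and 2 lower in CD8+ cells (median -0.02). Without L-gp130 replicate 1 the CD4+ count was 2 higher and 4 lower, and against control replicates 1 to 3 alone the CD8+ count was 2 and 2. The shares of all genes, with all libraries, were 11.1% higher and 7.75% lower in CD4+ cells, and 10.5% each way in CD8+ cells. Irak4, the kinase that phosphorylates IRAK1 downstream of Toll-like receptors, rose in both cell types (0.45 ± 0.07, adjusted p = 0.000858, and 0.44 ± 0.09, 0.00616, the latter 0.0507 without L-gp130 replicate 3). Myd88, the adaptor, rose in CD4+ cells (0.38 ± 0.1, 0.0226, called in 8 of 12 fits that left out 1 library). Tlr7, the endosomal RNA receptor, fell in CD8+ cells from 11.6 to 22.4 to 4.9 to 7.45 CPM (-1.39 ± 0.22, 0.00186) and in CD4+ cells by 0.78 with overlapping ranges (0.0352, called in 6 of 12 such fits). The macrophage marker C1qa fell in the same CD8+ libraries, from 11.9 to 37.8 to 3.6 to 3.9 CPM, and the part of macrophages in the Tlr7 value was not tested. Traf6, the ligase below MyD88, fell in CD8+ cells (-0.34 ± 0.07, 0.0105, up to 0.0695 without L-gp130 replicate 1 or 3).

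Of the other family and IRF2-binding protein genes, Irf9 was called lower in CD4+ cells, and Irf7 and Irf2bp1 in CD8+ cells. Irf9, the DNA-binding subunit of the complex that type I interferon activates, had a log2 fold change of -0.39 ± 0.10 in CD4+ cells (122 to 164 against 152 to 196 CPM, adjusted p = 0.0218), and -0.16 ± 0.09 in CD8+ cells (0.234). The Irf9 call was lost without L-gp130 replicate 2 or 6, where adjusted p reached 0.114. Irf7, the factor that amplifies type I interferon, read 101, 95.5 and 82 CPM in L-gp130 CD8+ libraries and 101 to 120.3 in controls (-0.26 ± 0.08, 0.0341). Its call held in 2 of 9 fits that left out 1 library. Irf2bp1, a corepressor that binds IRF2, had -0.29 ± 0.09 in CD8+ cells (0.046), also called in 2 of those 9. Against control replicates 1 to 3 alone neither was called, with adjusted p of 0.083 for Irf7 and 0.194 for Irf2bp1, and against replicates 4 to 6 alone both were (0.0202 and 0.00876). Of these 6 other genes tested, 0 were called higher and 1 lower in CD4+ cells, and 0 higher and 2 lower in CD8+ cells. Over all genes, 11.1% were called higher and 7.75% lower in CD4+ cells, and 10.5% each way in CD8+ cells.

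More members were called between cell types than between genotypes, and so were more of all genes. By genotype, 18.9% of all genes were called in CD4+ and 21% in CD8+ cells. In controls, 5 of 6 members were called between CD4+ and CD8+ cells (3 with RLE size factors), against a background of 51.4% of 15758 genes. Irf4 was 3.29-fold higher in CD4+ cells (42 ± 3.07 against 12.7 ± 3.08 CPM, n = 6 and 6, log2 difference 1.72 ± 0.12, adjusted p = 6.97e-10), Irf5 2.58-fold (1.37 ± 0.27, 0.000321) and Irf8 2.34-fold (1.23 ± 0.29, 0.00183). Irf1 was lower in CD4+ cells (-0.45 ± 0.17, 0.0357), a call lost in 8 of 21 fits that left out 1 library, and Irf3 by 0.14 ± 0.05 (0.0313), lost in 4 of 21. Irf1 was called in 4 of 6 other settings. Irf3 was called in 2 of those 6, with log2 values of -0.14 to -0.01 and adjusted p up to 0.893. Per length Irf3 was higher in control CD4+ cells, at 176 against 112 TPM. With L-gp130, 4 of 6 were called, all higher in CD4+ cells, against 47.8% of genes. Irf4 was 2.3-fold higher (1.20 ± 0.15, adjusted p = 1.28e-06), Irf5 2.19-fold (1.13 ± 0.32, 0.00693), Irf8 2.07-fold (1.05 ± 0.34, 0.0175, up to 0.0808 without L-gp130 CD8+ replicate 1 or 2) and Irf2 1.14-fold (0.19 ± 0.07, 0.0433, called in 14 of 21 fits that left out 1 library). Irf1 had -0.30 ± 0.19 (0.209), and -0.55 ± 0.07 without L-gp130 CD4+ replicate 1 (4.11e-06). Cell type goes with the method of selection in every library, and these cannot be told apart. For Irf4, the 4 groups ran from control CD8+ through L-gp130 CD8+ and control CD4+ to L-gp130 CD4+, with no overlap between neighbours.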

How the data were processed

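RNA-seq libraries were made from bulk splenic T cells. Per the submitters' processing notes, reads were handled with cutadapt 3.4, Trimmomatic 0.39, Salmon 1.5.2, edgeR 3.34.1 and GRCm38; the annotation release was not given in the sources used here. The authors deposited estimated counts per gene for each cell type, which were rounded to whole numbers. The deposited Salmon files also gave TPM and estimated reads per transcript, used for levels between genes, transcript shares and fits across cell types. Of 51201 gene IDs, 51115 had a symbol.

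Each cell type was fitted by itself with edgeR 4.0.16 (filterByExpr, TMM, robust quasi-likelihood test, labelled sex as covariate) in R 4.3.3, with Benjamini-Hochberg adjustment over all genes tested and a threshold of 0.05. SE is the log2 fold change divided by the root of the F statistic. The same model over all 21 libraries, on reads per transcript summed per gene, gave differences between cell types. DESeq2 1.42.0, limma-voom 3.58.1, other scalings, filters and subsets were alternatives; the comparisons with control CD8+ replicates 1 to 3 or 4 to 6 alone were chosen after seeing the data. The fit was tested on simulated data.

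Members and gene lists were chosen with earlier results of these data known. Outside the members and the rest of the family, up to 4 called genes per list with the smallest adjusted p were named, plus any called in opposite directions. Likeness is Pearson r of log2 CPM (prior count 2), over genes that averaged 3 or more on that scale. A planned comparison of the members' proteins was not run. Results for some genes that these rules name are not reported here.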

Additional observations from a re-analysis of the deposited data

Results flagged for a closer look

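In L-gp130 CD4+ replicate 1, Irf1 (515 CPM), Irf5 (85.1 CPM) and Irf8 (296 CPM) lay far from the other 5 libraries of their group. The same library had the highest dendritic cell marker sum (2475 CPM). It also had the most Ifng, the interferon gamma gene (99.1 against 4.49 to 8.05 CPM in the other 5), and Cxcl9 (218 against 8.33 to 27.7 CPM). Ifng was named after its values were seen. The part of such cells or of interferon gamma in these 3 members was not tested. Chance marks about 1 in 20 such groups, and 24 were examined.

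Among the list genes chosen for naming by smallest adjusted p, the genotype effect differed between the cell types for 7 by edgeR. A called difference was present in 3.46% of all genes. Other genes of the lists are not in this count. Values are the log2 effect in CD4+ minus that in CD8+ cells. Batf (1.02 ± 0.10), Egr2 (0.92 ± 0.15), Etv6 (0.76 ± 0.09) and Tank (0.43 ± 0.07) stayed called in every fit that left out 1 library and in 7 of 7 other settings. Nfatc1 (0.56 ± 0.12) was lost in 1 fit, without L-gp130 CD8+ replicate 1. Icos (0.44 ± 0.12) was called in 1 of 7 other settings and Ifngr2 (0.41 ± 0.11) in 3 of 7, and both were lost in most fits that left out 1 library.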

How the results depend on the processing

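Of 2836 genes called in CD4+ cells, 1272 were called at an adjusted p under 0.01 and 942 with a 2-fold change added. Members called there were 1, but 0 at either threshold, 0 with no filter, 0 with the replicate block (Irf4 adjusted p = 0.121 by edgeR) and 2 without the 2 doubted libraries. In CD8+ cells 2996 genes became 1249 and 836 at those thresholds, 133 in females alone and 1740 in males alone, where fewer samples enter. Members called there were 2, but 0 at either threshold, 0 in females, 1 in males and 0 with the replicate block (Irf4 0.0544, Irf1 0.0635). Genes whose effect differed between cell types numbered 545, and 955 with DESeq2, 353 with the gene tables joined and 268 with the replicate block. With RLE size factors 3 members, not 5, were called between control cell types. Replicate numbers do not pair L-gp130 with control libraries of a cell type: same-numbered libraries correlated at -0.205 to 0.178, and 2 of 9 correlated best with their own number. Whether CD4+ and CD8+ libraries came from the same mice was not tested. The fits across cell types treat all libraries as independent.

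Leaving out 1 library gave 1411 (L-gp130 replicate 6) to 3642 (L-gp130 replicate 1) called genes in CD4+ cells with 0 to 2 members, 1374 (L-gp130 replicate 1) to 2967 in CD8+ cells with 0 to 2 members, and 236 (L-gp130 CD8+ replicate 1) to 984 (L-gp130 CD4+ replicate 1) differing between cell types with 0 to 1 members. Members called between cell types were 3 to 5 in controls and 2 to 4 in L-gp130.

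Signs turned only for log2 values that were not called. In CD4+ cells without the sex covariate, Irf5 was 0.03, Irf2bp1 0.01, B2m 0.04 and Gbp6 0.04. Irf2bp1 was 0.07 in females. With sex read from transcripts, Irf2bp1 was 0.01 and B2m 0.02, and B2m was 0.01 from reads per transcript. The replicate block gave Irf2bpl -0.08, B2m 0.09 and Gbp6 0.11. In CD8+ cells against control replicates 1 to 3, Irf2 was 0.04, Irf8 -0.12 and Junb -0.20, and against 4 to 6, Irf5 was 0.08, Nfatc1 -0.06 and Spib 0.21. In females, Irf2 was 0.04, Irf3 -0.01 and Irf2bpl 0.11; in males, Irf8 was -0.10 and Nfatc1 -0.01. From reads per transcript, Irf2 was 0.04, Irf3 -0.01, Irf5 0.05 and Irf8 -0.01. Irf5 was 0.02 with limma-voom and Nfatc1 -0.0027 with no filter. The replicate block gave Irf2 0.04, Irf8 -0.12 and Junb -0.20. For the difference between cell types, Irf3 was -0.09 with joined tables and Irf8 0.04 with the replicate block. Leaving out 1 library moved CD4+ values of Irf3 from -0.10 to 0.0036, Irf2bp1 from -0.07 to 0.07, Irf2bpl from -0.02 to 0.20, B2m from -0.08 to 0.04 and Gbp6 from -0.52 to 0.04. It moved CD8+ values of Irf2 from -0.04 to 0.01, Irf5 from -0.13 to 0.08, Irf8 from -0.09 to 0.12 and Nfatc1 from -0.04 to 0.05. Differences between cell types ran from -0.05 to 0.25 for Irf1, -0.004 to 0.08 for Irf3 and -0.50 to 0.03 for Irf8. The cause was not tested. Of the single-gene alternatives, 2351 kept direction and call, 146 lost the call and 49 gained one. With 3 L-gp130 CD8+ libraries, small differences there may not have been detectable.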
